A study of Mus musculus with 15 samples.

Results

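Mitochondrial beta-oxidation is the main route by which the adult heart obtains energy from fatty acids, and its enzymes are encoded by nuclear genes. Each turn of the spiral removes a pair of carbons from an acyl-CoA: an acyl-CoA dehydrogenase introduces a double bond, a hydratase adds water across it, a hydroxyacyl-CoA dehydrogenase oxidises the product, and a thiolase releases acetyl-CoA. Long chains are handled at the inner membrane by the very long-chain dehydrogenase and the mitochondrial trifunctional protein, and shorter chains by soluble enzymes of the matrix. The 10 genes described here were set by name, as enzymes of this pathway, with earlier results of these data known: Acadvl, Acadl, Acadm and Acads (acyl-CoA dehydrogenases of falling chain-length preference), Hadha and Hadhb (the alpha and beta subunits of the trifunctional protein), Echs1 (short-chain hydratase), Hadh (hydroxyacyl-CoA dehydrogenase), Acaa2 (thiolase) and Eci1 (an isomerase needed for unsaturated chains). They are 10 of the 55487 genes listed in each deposited table. All 10 were among the 20718 genes with enough counts to test, with at least 9067 counts in every library.

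RNA came from the hearts of 15 male mice aged 225 days, taken from the free wall of the left ventricle at its midline. The kidney disease group held 7 mice with a mutation of Col4a5, the X-linked gene of a type IV collagen chain of the kidney filter, at an age that the labels place in advanced chronic kidney disease. The wild-type group held 8 animals with no disease, and the labels describe littermates of the mutants kept together with them on normal chow. The labels call the mutation a knockdown while the design text calls it a knockout, and they name isoflurane in one place and ketamine with xylazine in another. The study asked how heart metabolism changes in kidney disease, and the comparison below asks it of the beta-oxidation genes.

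Col4a5 had 522 to 1111 counts in the mutant libraries against 2442 to 3620 in the wild-type ones, so the libraries matched their labels. Library totals ran from 48748379 to 65519279 counts, and cardiomyocyte transcripts dominated as the tissue label says. The libraries also divided across the groups by their most abundant gene. In 5 of them, 3 from diseased mice (animals 4, 5 and 7) and 2 from controls (animals 6 and 7), this was the sarcomere gene Ttn. In the other 10 it was the mitochondrial gene mt-Co1. The summed level and the change of each of the 10 genes are therefore also given within this division.

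Summed over the 10 genes, the beta-oxidation transcripts lay lower in most kidney disease animals. The sum is a description and carries no test. The sum was lowest at 5456, had its median at 6065 and was highest at 6622 CPM (counts per 1000000 counts of the library, scaled between libraries by TMM factors) in the 7 kidney disease animals. In the 8 wild-type animals it was lowest at 5962, had its median at 7165 and was highest at 7795 CPM. The groups overlapped only through wild type 6 and 7, both led by Ttn. Within the 10 libraries led by mt-Co1, the 4 kidney disease animals lay between 6065 and 6622 CPM and the 6 wild-type animals between 6751 and 7795 CPM. Within the 5 libraries led by Ttn, the 3 kidney disease animals lay between 5456 and 5959 CPM and the 2 wild-type animals at 5962 and 6129 CPM. On this scale the groups did not overlap in either part of the division, although in the second the gap between them was small. The division was read from the same counts and went with the summed level. Wild-type medians were 6045 CPM in the libraries led by Ttn and 7321 CPM in those led by mt-Co1. The lack of overlap within the division is therefore a description only and was not compared with all genes. As a percentage of the library's counts, without TMM factors, the groups overlapped in both parts. Kidney disease 6 (0.663%) lay above wild type 2 (0.661%), and kidney disease 5 (0.632%) above wild type 6 (0.628%). As this is bulk tissue, fewer cardiomyocytes and less RNA per cardiomyocyte cannot be told apart.

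**Figure D1:**
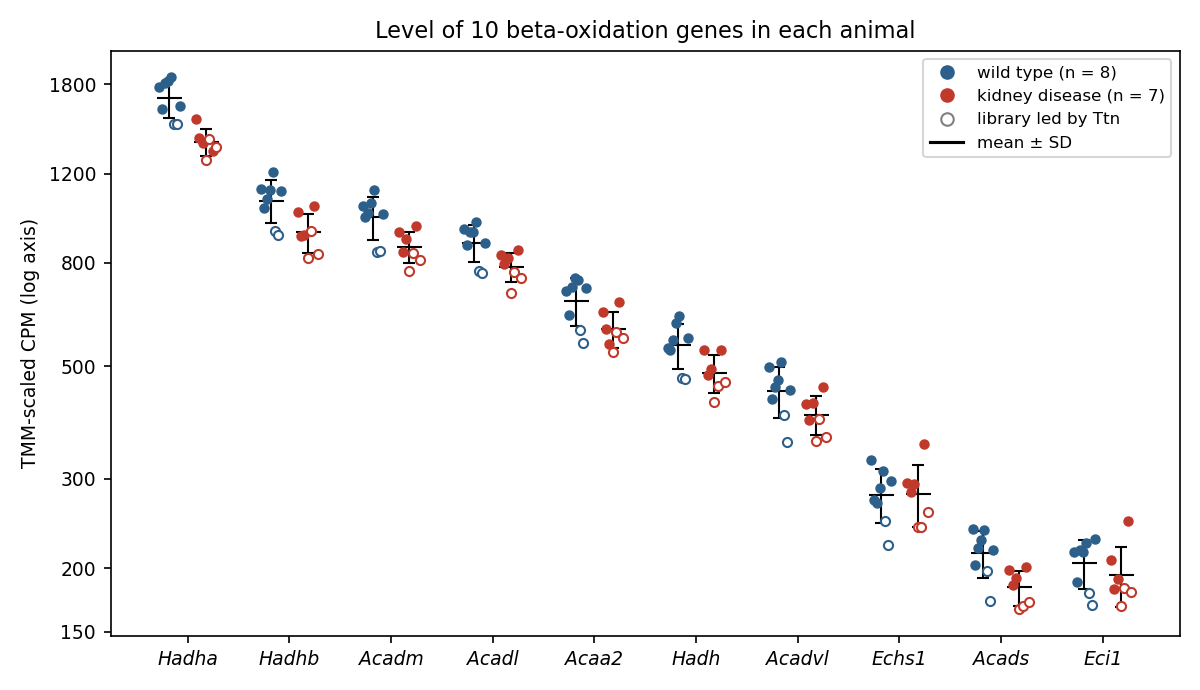
TMM-scaled CPM on a log axis for the 10 genes in each of the 15 animals, ordered by wild-type mean, with black bars for mean ± SD over 8 wild-type (blue) and 7 kidney disease (red) animals. Open circles are libraries led by Ttn; Hadha has the highest CPM of the 10 genes and 6 of 7 kidney disease animals below the lowest wild-type animal.

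Gene by gene, Hadha was called lower and the other 9 genes did not pass. Of the 10 genes, 1 fell and 0 rose at an adjusted p under 0.05 (edgeR quasi-likelihood test, Benjamini-Hochberg adjusted over all genes tested), against 0.473% of all genes called lower, 0.811% called higher and 1.28% called in either direction. None rose at an unadjusted p under 0.05 either, and DESeq2 and limma-voom also called Hadha alone. The log2 change was below 0 in 9 of the 10 genes, as it was in 48.8% of all genes, with a median of -0.18 for the 10 against 0.00 for all genes tested. An unadjusted p under 0.05 in the lower direction was reached by 7 of the 10, against 5.55% of all genes. The same number had every kidney disease animal below the wild-type mean, against 6.27% of all genes. No gene had all kidney disease animals below all wild-type animals, a pattern seen in 0.179% of all genes. The 10 genes varied together between animals, so these counts are not counts of separate events.

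**Figure D2:**
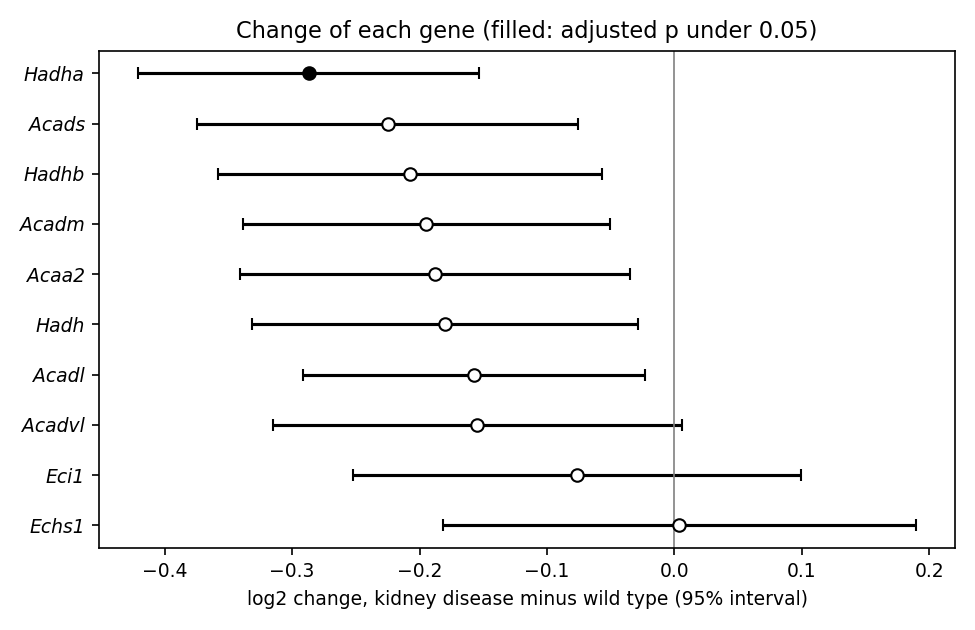
Log2 change from wild type to kidney disease for each of the 10 genes, with its 95% confidence interval from the edgeR fit. Hadha (filled, -0.29) is the gene that passed at an adjusted p under 0.05, and the intervals of Acadvl, Eci1 and Echs1 include 0.

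The trifunctional protein is an assembly of alpha and beta subunits. Its alpha subunit, from Hadha, carries the long-chain hydratase and hydroxyacyl-CoA dehydrogenase activities, and its beta subunit, from Hadhb, the long-chain thiolase. Hadha (ENSMUSG00000025745, chromosome 5, 30118304 to 30155162, minus strand, GRCm38) was lowest at 1274, had its median at 1379 and was highest at 1540 CPM in kidney disease. In wild type it was lowest at 1502, had its median at 1703 and was highest at 1857 CPM. Exons of Garem2 on the opposite strand cover 0.859% of its exonic bases, and Garem2 stood at 0.535 ± 0.174 CPM (SD, n = 7) in kidney disease. Of the 7 kidney disease animals, 6 lay below the lowest wild-type animal, and kidney disease 1 was the exception.

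Hadha fell by 18.0% (95% confidence interval -25.3% to -10.1%), a log2 change of -0.29 (SE 0.06, edgeR adjusted p = 0.034). The call depended on which animals were included, and it held in 6 of the 15 fits with 1 library left out. With 1 library left out, the log2 change ranged from -0.31 to -0.27. The adjusted p was between 0.056 and 0.075 without any 1 of the kidney disease animals 2, 3, 4, 5 and 7 or of the wild-type animals 1, 3, 4 and 5. It was between 0.013 and 0.049 without any of the others. With no filter on low counts the adjusted p was 0.087. With the leading gene of the library as a term, the log2 change was -0.26 (adjusted p = 0.013). It was -0.30 within the libraries led by mt-Co1 (adjusted p = 0.066) and -0.17 within those led by Ttn (adjusted p = 0.63).

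Hadhb (ENSMUSG00000059447, chromosome 5, 30155248 to 30184593, plus strand) was lowest at 818, had its median at 906 and was highest at 1035 CPM in kidney disease. Wild-type values were 907 CPM at the lowest, 1090 at the median and 1211 at the highest. Its log2 change of -0.21 (SE 0.07, edgeR adjusted p = 0.20) did not pass, although all 7 kidney disease animals lay below the wild-type mean. The ratio of Hadha to Hadhb within each library, which does not depend on library scaling, compares the changes of both subunits directly. On the log2 scale it was 0.59 ± 0.11 (SD, n = 7) in kidney disease and 0.67 ± 0.07 (SD, n = 8) in wild type. The difference of -0.08 between the group means did not pass (two-sided exact permutation p = 0.093). Without kidney disease 6 the difference was -0.04 (exact permutation p = 0.21), while it passed without kidney disease 7 (-0.10, exact permutation p = 0.036) or wild type 8 (-0.09, exact permutation p = 0.020).

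Hadha and Hadhb stand head to head and are read in opposite directions. In the GENCODE annotation 85 bases separate their outermost 5′ ends (chr5:30155163-30155247, GRCm38). RefSeq places the start of Hadha within the GENCODE gene, at 30154980, and that of Hadhb at 30155253. The RefSeq promoter windows, from 250 bases before to 50 bases after each start, share 228 bases. The stretch between the genes is shown because both subunit genes start at its edges. It is written 5′ to 3′ on the plus strand, towards Hadhb, with each GC box (GGGCGG on either strand) in capitals.

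Hadha and Hadhb, between the genes: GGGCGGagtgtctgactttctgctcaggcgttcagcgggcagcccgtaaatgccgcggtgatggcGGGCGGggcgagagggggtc

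Promoter windows placed by RefSeq starts (GRCm38.p6) were searched for 9 members, and Acaa2 was left out of this search. The GC box was present in 7 of the 9 windows, against 35.7% of all 32851 windows of the same 300 bases. The windows of Hadha and Hadhb overlap, and the 1 GC box of the Hadha window lies in the shared bases. That site therefore counts in both windows. Nuclear receptors of the PPAR and ERR families, known regulators of fatty acid oxidation in heart, bind sites built on the core AGGTCA. On either strand this core was found in 3 of the 9 windows, those of Acadm, Acadvl and Echs1, against 16.3% of all windows. A direct repeat of the core with 1 base between its copies, the site that PPAR binds together with its partner RXR, was found in none of the 9 and in 0.0396% of all windows. The extended core TCAAGGTCA, preferred by ERR, was found in none of the 9 and in 0.423% of all windows. Each of these matches contains the core, so the searches overlap. The core sites are shown with their neighbouring bases on the strand of the gene, with the core in capitals. In Acadm the core lies on the opposite strand, so the capitals read TGACCT. The 3 sites lie 249, 87 and 83 bases before the RefSeq start. A match is a match of letters and not a measured binding site.

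Acadm, chr3:153944864-153944893, minus strand: gTGACCTtcgggctccggtgacactgggca

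Acadvl, chr11:70015498-70015527, minus strand: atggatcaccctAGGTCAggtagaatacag

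Echs1, chr7:140116487-140116516, minus strand: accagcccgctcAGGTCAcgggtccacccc

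The log2 changes of these 3 genes were -0.19 (Acadm), -0.15 (Acadvl) and 0.00 (Echs1), and none passed.

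The acyl-CoA dehydrogenases open each turn of the spiral and pass their electrons to the electron transfer flavoprotein. None of the 4 passed, and their log2 changes lay close together. Acadvl (ENSMUSG00000018574, chromosome 11, 70010183 to 70015411, minus strand), which acts on the longest chains at the inner membrane, was lowest at 357, had its median at 394 and was highest at 456 CPM in kidney disease. In wild type it was lowest at 354, had its median at 453 and was highest at 511 CPM. The groups overlapped over most of their range, with wild type 7 the lowest of all 15 animals. Its log2 change was -0.15 (SE 0.08, edgeR adjusted p = 0.43, 95% interval -0.32 to 0.01). Exons of Dvl2 on the opposite strand cover 42.9% of the exonic bases of Acadvl. The strand setting of the counting is unknown here, so reads of this pair may have been lost or shared, and the level of Acadvl is uncertain. Dvl2 itself stood at 8.59 ± 0.973 CPM (SD, n = 7) in kidney disease and 7.93 ± 0.792 CPM (SD, n = 8) in wild type.

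Acadl (ENSMUSG00000026003, chromosome 1, 66830839 to 66863277, minus strand), the long-chain dehydrogenase, was lowest at 699, had its median at 796 and was highest at 847 CPM in kidney disease. Wild-type values were 763 CPM at the lowest, 898 at the median and 961 at the highest. All wild-type animals except 6 and 7 lay above every kidney disease animal. The log2 change was -0.16 (SE 0.06, edgeR adjusted p = 0.30, 95% interval -0.29 to -0.02).

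Acadm (ENSMUSG00000062908, chromosome 3, 153922357 to 153944632, minus strand) encodes the medium-chain dehydrogenase, whose loss is a common inherited defect of fatty acid oxidation. It was lowest at 772, had its median at 841 and was highest at 945 CPM in kidney disease. In wild type it was lowest at 841, had its median at 1000.02 and was highest at 1113 CPM. Here too the wild-type animals 6 and 7 lay among the kidney disease animals and the other 6 above all of them. The log2 change was -0.19 (SE 0.07, edgeR adjusted p = 0.21, 95% interval -0.34 to -0.05).

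Acads (ENSMUSG00000029545, chromosome 5, 115110299 to 115119346, minus strand), the short-chain dehydrogenase, was lowest at 166, had its median at 185.6 and was highest at 201.3 CPM in kidney disease. Wild-type values were 172 CPM at the lowest, 218 at the median and 239 at the highest. Its log2 change of -0.22 (SE 0.07, edgeR adjusted p = 0.15, 95% interval -0.37 to -0.08) was the largest after that of Hadha. It passed without wild type 7 (-0.26, adjusted p = 0.032) and in no other fit with 1 library left out. The intervals of the 4 dehydrogenases overlapped one another, and differences between them were not tested.

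None of the matrix enzymes that complete the spiral for shorter chains passed the test. Hadh (ENSMUSG00000027984, chromosome 3, 131233419 to 131272101, minus strand), the hydroxyacyl-CoA dehydrogenase, was lowest at 425, had its median at 481 and was highest at 539 CPM in kidney disease. In wild type it was lowest at 473, had its median at 554 and was highest at 630 CPM. All 7 kidney disease animals lay below the wild-type mean, and the log2 change was -0.18 (SE 0.07, edgeR adjusted p = 0.29, 95% interval -0.33 to -0.03).

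Acaa2 (ENSMUSG00000036880, chromosome 18, 74779197 to 74806208, plus strand), the thiolase that releases acetyl-CoA, was lowest at 535, had its median at 584 and was highest at 670 CPM in kidney disease. Wild-type values were 555 CPM at the lowest, 708 at the median and 746 at the highest. Its 7 kidney disease animals also lay below the wild-type mean, with a log2 change of -0.19 (SE 0.07, edgeR adjusted p = 0.27, 95% interval -0.34 to -0.03).

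Echs1 (ENSMUSG00000025465, chromosome 7, 140105710 to 140116476, minus strand), the short-chain hydratase, was level between the groups in its mean. It was lowest at 241, had its median at 282 and was highest at 352 CPM in kidney disease. In wild type it was lowest at 223, had its median at 280.2 and was highest at 327 CPM. The groups overlapped throughout, and 3 of 7 kidney disease animals lay below the wild-type mean. The log2 change was 0.00 (SE 0.09, edgeR adjusted p = 0.99). Its 95% interval of -0.18 to 0.19 overlapped that of Hadha (-0.42 to -0.15). Its sign changed with the scaling, as given in the closing section. Paox on the opposite strand covers 1.71% of its exonic bases.

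Eci1 (ENSMUSG00000024132, chromosome 17, 24426641 to 24439348, plus strand), the isomerase that moves double bonds of unsaturated chains into place, was lowest at 168, had its median at 183 and was highest at 247 CPM in kidney disease. Wild-type values were 169 CPM at the lowest, 215 at the median and 228 at the highest. The highest of all 15 animals was kidney disease 6, and the rest of that group lay at or below the wild-type median. The log2 change was -0.08 (SE 0.08, edgeR adjusted p = 0.80, 95% interval -0.25 to 0.10). Whether Echs1 or Eci1 differed in its change from the other members was not tested.

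Within the division of the libraries, none of the 10 genes, Hadha included, passed in either part. Within the 10 libraries led by mt-Co1 the log2 changes were close to those over all animals. They were -0.20 for Hadhb, Acads and Acaa2, -0.19 for Acadm, -0.16 for Hadh, -0.15 for Acadl and Acadvl, -0.05 for Eci1 and 0.06 for Echs1. Within the 5 libraries led by Ttn, with 3 kidney disease and 2 wild-type animals, most were smaller in size. There Acads was at -0.14 (SE 0.08), Hadhb at -0.10 (SE 0.08), Hadh at -0.08 (SE 0.08), Acadm at -0.07 (SE 0.08) and Acadl at -0.06 (SE 0.08). Acadvl was at -0.03 (SE 0.09), Acaa2 at -0.03 (SE 0.08), Eci1 at 0.02 (SE 0.08) and Echs1 at 0.06 (SE 0.08). Acadm, Acadl, Acadvl, Acaa2, Eci1 and Echs1 were all within 1 SE of 0. The difference between both parts was not tested.

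The 10 genes rose and fell together from animal to animal within each group. Wild type 7 was the lowest wild-type animal in 9 of the 10 genes and wild type 6 in the remaining one, Acadm. Wild type 5 was the highest in 6 of them. In kidney disease, animal 4 was the lowest in 9 and animal 6 the highest in 9. Across the 15 animals, with each gene centred on its group mean, the 45 pairs of genes had Pearson correlations from 0.51 to 0.97 with a median of 0.87. These are values of a description, since all genes of a library share its depth and composition. Acadm and Acadl were the most alike (r = 0.97). Hadha was the least like the others (median r = 0.76), and its lowest values were with Echs1 (0.51) and Eci1 (0.56). Kidney disease 6 stood out here: it had the highest level of its group in every member except Hadha, of which it had the second lowest.

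**Figure D3:**
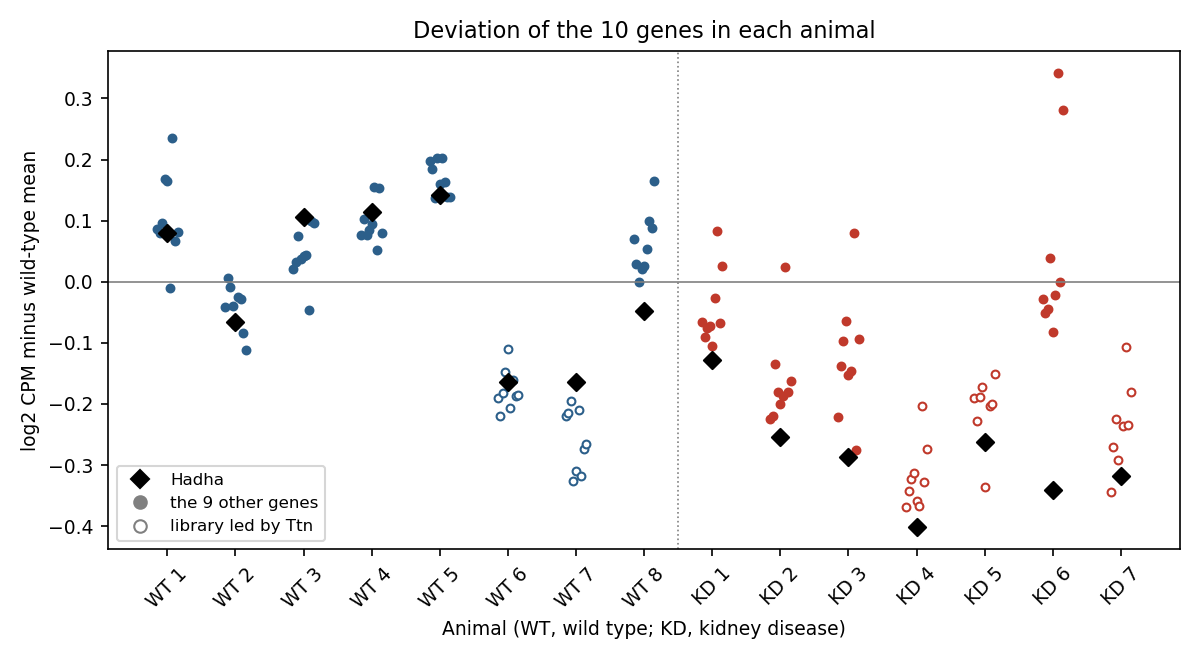
Log2 CPM of each gene minus its mean in wild type, for each animal (WT, wild type; KD, kidney disease). Black diamonds are Hadha, which lies at or near the bottom of the members in the kidney disease animals and furthest below them in kidney disease 6; open circles are libraries led by Ttn.

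Levels of different genes were compared per length, on the deposited FPKM scale (CPM divided by the kilobases of exon). In wild type Acaa2 (434 ± 30.9 FPKM, SD, n = 8) and Acadl (427 ± 18.0) were the most abundant. Acadm followed at 245 ± 14.5 FPKM and Hadha at 188.8 ± 8.80 FPKM. Acadvl (162 ± 11.6), Hadhb (157 ± 9.55), Hadh (108 ± 7.65), Eci1 (93.9 ± 7.41) and Acads (92.1 ± 5.81) came next, and Echs1 was the lowest at 32.9 ± 2.74 FPKM. The wild-type ranges of Acaa2 and Acadl overlapped, and so did those of Hadha and Acadvl, of Acadvl and Hadhb, of Hadh and Eci1, and of Eci1 and Acads. All other neighbours in this order were apart in every one of the 15 animals. In kidney disease the FPKM of Hadha was 162 ± 7.24 (SD, n = 7), closer to the 153 ± 9.99 of Acadvl. The exonic lengths count every annotated transcript, 8730 bases for Hadha and 8286 for Echs1, so genes with many long untranslated or retained-intron transcripts are understated on this scale.

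Genes around the spiral were counted by list, beside the 0.473% of all genes called lower and the 0.811% called higher. Of 17 other mitochondrial enzymes of acyl-CoA oxidation and of related dehydrogenases, 1 fell and 0 rose, with a median log2 change of -0.14 and 15 below 0. The gene that fell was Ivd, a dehydrogenase of leucine breakdown (323 ± 23.6 against 390 ± 28.4 CPM; log2 change -0.27, SE 0.06, edgeR adjusted p = 0.035). Acad12 (-0.23, SE 0.06, adjusted p = 0.079) and Ech1, the dienoyl-CoA isomerase (-0.27, SE 0.09, adjusted p = 0.18), did not pass. Neither did Decr1, the dienoyl-CoA reductase for unsaturated chains (-0.20, SE 0.07, adjusted p = 0.23).

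Upstream of the spiral, 2 of 11 genes of fatty acid activation and the carnitine shuttle fell and 0 rose, with a median of -0.12. Below 0 were 8 of the 11. Of all genes tested, 0.473% were called lower. Cpt2, which rebuilds acyl-CoA inside the mitochondrion, was at -0.33 on the log2 scale (SE 0.07, edgeR adjusted p = 0.023). Its values lay between 154 and 191.2 CPM in the 7 diseased animals and between 178 and 239 CPM in the 8 controls, so the groups overlapped. Crat, which exchanges acetyl groups between CoA and carnitine, was at -0.30 (SE 0.07, adjusted p = 0.030). The carnitine carrier Slc25a20 was at -0.17 (SE 0.07, adjusted p = 0.31) and did not pass.

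Downstream, none of the 5 genes of the electron transfer flavoprotein, which takes electrons from the dehydrogenases, and of its partners passed (median -0.01). Below 0 were 3 of the 5. Etfdh, which hands these electrons to ubiquinone, was at -0.15 (SE 0.07, edgeR adjusted p = 0.43), Etfrf1 at 0.18 (SE 0.09, adjusted p = 0.44) and Etfb at -0.08 (SE 0.10, adjusted p = 0.83). None of 15 genes of peroxisomal beta-oxidation, which shortens very long chains, passed (median -0.06), with 12 of 15 below 0. Abcd3, which carries fatty acids into peroxisomes, was at -0.17 (SE 0.07, adjusted p = 0.27).

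Among 13 tested regulators of these genes, none passed (median -0.05), with 9 of 13 below 0. The coactivator gene Ppargc1b had the largest change, at 64.3 ± 7.86 against 80.1 ± 16.3 CPM (-0.32, SE 0.11, edgeR adjusted p = 0.21). Ppara was at -0.03 (SE 0.09, adjusted p = 0.95) and Esrra at -0.05 (SE 0.07, adjusted p = 0.85). Sirt5 was at -0.12 (SE 0.06, adjusted p = 0.46) and Ppard at -0.09 (SE 0.06, adjusted p = 0.60).

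Other mitochondrial pathways were read beside these. In the citric acid cycle, which burns the acetyl-CoA, none of 13 genes passed (median -0.07), with 12 of 13 below 0. The smallest p were those of Ogdh (-0.19, SE 0.07, adjusted p = 0.21), Dlst (-0.15, SE 0.07, adjusted p = 0.39) and Cs (-0.09, SE 0.06, adjusted p = 0.60). None of 24 nuclear-encoded genes of oxidative phosphorylation passed, and their median was 0.01 with 16 of 24 above 0. Sdha (-0.14, SE 0.06, adjusted p = 0.37), Uqcrc1 (-0.10, SE 0.08, adjusted p = 0.66) and Ndufs1 (-0.09, SE 0.07, adjusted p = 0.67) had the smallest p. The difference between these medians and that of the 10 beta-oxidation genes was not tested.

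**Figure D4:**
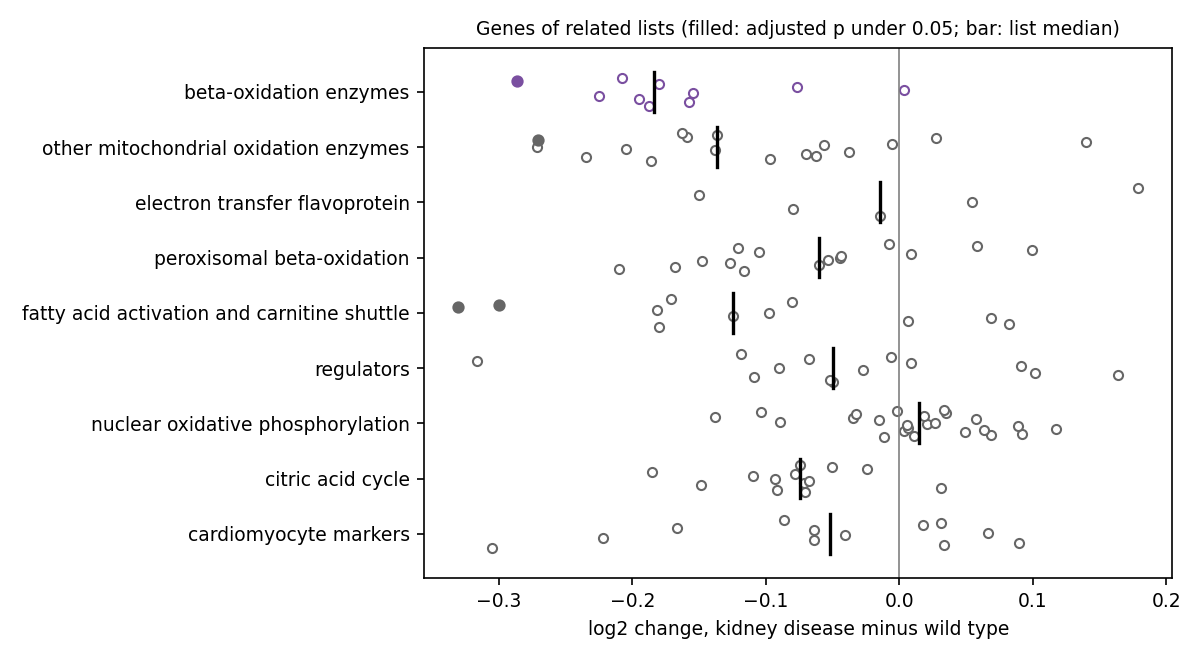
Log2 change from wild type to kidney disease for every tested gene of the beta-oxidation enzymes (purple) and of related lists (grey), with black bars at list medians and filled circles for genes with an adjusted p under 0.05. The median of the beta-oxidation enzymes is -0.18 and that of nuclear oxidative phosphorylation 0.01; Hadha, Ivd, Cpt2 and Crat are filled.

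Markers of cell types moved with the groups as well. Of 10 macrophage markers 8 rose and 0 fell, against 0.811% of all genes called higher and 0.473% called lower. Their summed level was 424 to 598 CPM with disease and 309 to 370 CPM without. Of 8 fibroblast markers 4 rose and 0 fell (1113 to 1426 against 924 to 1197 CPM), and of 6 B cell markers 5 rose and 0 fell (16.9 to 27.4 against 7.10 to 15.001 CPM). None of 12 cardiomyocyte markers passed (median -0.05), with 7 below 0 and 5 above. Their sum was 114893 to 131999 CPM with disease and 130338 to 137835 CPM without. Most of it came from Myh6 (log2 change -0.22) and Ttn (-0.09), and Ttn also marks the division of the libraries. Set against that sum, the 10 beta-oxidation genes amounted to 4.96% ± 0.483 (SD, n = 7) in kidney disease and 5.21% ± 0.442 (SD, n = 8) in wild type, and these ranges overlapped (4.35% to 5.76% against 4.54% to 5.78%). None of the endothelial (8 tested), smooth muscle and pericyte (7), adipocyte (6), erythroid (7) or atrial (6) markers passed. The erythroid markers summed to 310.3 to 822 CPM with disease and to 559 to 1076 CPM without. The adipocyte markers summed to 252 to 490.0 against 233 to 378 CPM, most of it from Fabp4 (log2 change 0.28). The other 5 tested were below 0 (list median -1.21). Of these, Adipoq, Plin1, Cidec and Pck1 were low and uneven between wild-type animals. In that order, their wild-type ranges were 0.399 to 5.37, 0.418 to 13.4, 0.418 to 5.62 and 0.239 to 22.9 CPM. The atrial markers summed to 35.6 to 1793 against 39.8 to 1511 CPM. The part of cell composition in the levels of the beta-oxidation transcripts was not tested.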

How the data were processed

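Each deposited table covers 1 library, with raw counts beside CPM and FPKM for every gene. The authors worked with STAR 2.7.9a, featureCounts 2.0.3, Subread and bcl2fastq on GRCm38, per the submitters' processing notes. The sources used here do not name the annotation release or the strand setting. Per the labels, libraries came from total RNA (integrity number at least 8) with ribosomal RNA removed, so unspliced transcripts can add to counts. Recomputed from the counts, the deposited CPM is scaled to 1000000 counts of the library total. The deposited FPKM is that CPM divided by exon length in kilobases.

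Symbols and positions came from GENCODE M21 (GRCm38), which holds 55141 of the 55487 identifiers. Of these, 99.4% had the same start and end, the 10 members included. Genes were filtered with edgeR's filterByExpr (minimum count 10), scaled with TMM factors and tested with the quasi-likelihood F test in edgeR 4.0.16 (R 4.3.3), group as the only term, with Benjamini-Hochberg adjustment over every tested gene and a threshold of 0.05. Log2 changes are kidney disease minus wild type. Intervals are 95% intervals from that fit. For the Hadha to Hadhb ratio all 6435 ways of dividing the animals into 7 and 8 were enumerated. The code was tested on simulated counts with known changes. These were all larger in size than the changes of the 10 members, so smaller changes were not covered.

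No 2 libraries were identical. The design text calls the samples biological replicates. Named genes were the 10 members, up to 3 genes of each pathway list with the smallest p and every one past the threshold, Col4a5, and the 6 protein-coding genes (mean of at least 5 CPM) whose deviations correlated best with the members' mean. Ppara, Esrra, Dvl2, Garem2, Paox, Fabp4, Myh6 and Ttn were chosen outside that rule, with their values known. Some genes that the rule names are not reported here. Members and lists were chosen with earlier results of these data known. Alternatives were scaling by RLE or the upper quartile, testing with DESeq2 1.42.0, or limma-voom (limma 3.58.1), no filter or one of 7 libraries at 1 CPM or more, leaving out mitochondrial genes, thinning to equal depth, a replicate block, the library division, and leaving out each library.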

Additional observations from a re-analysis of the deposited data

Results flagged for a closer look

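The ratio of Hadha to Hadhb in kidney disease 6 lay far from that of the other 6 kidney disease animals, at 0.36 on the log2 scale against 0.60 in the nearest of them. The gap took up 0.71 of the range of the group, above the limit of 0.568 for 7 samples. Its Hadha was at 1329 CPM, near the bottom of its group, while its Hadhb was the highest of the group at 1035 CPM. Chance picks out about 1 in 20 groups, and 22 groups of values were searched, of which this was the only one picked out.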

How the results depend on the processing

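The median log2 change of the 10 genes stayed between -0.22 and -0.16 with any 1 library left out. It ran from -0.19 to -0.06 under the other 12 alternatives, and the smallest size came from the 5 libraries led by Ttn. The count of members called was 0 with no filter, with the replicate block, and within the libraries led by mt-Co1 or by Ttn, and it ran from 0 to 2 with 1 library left out; Hadha then had adjusted p = 0.087, 0.068, 0.066 and 0.63 in the first 4 of these. The subsets also hold fewer animals. The count of all genes called was 266, and it was 640 with DESeq2, 116 with the replicate block, 523 with the library division as a term, 86 with the mt-Co1-led libraries alone and 3 with the Ttn-led ones alone. With 1 library left out it ran from 97 (without wild type 5) to 388 (without wild type 7). The log2 change of Echs1 was -0.00090 with RLE scaling, -0.0038 with upper-quartile scaling and -0.00021 with the filter of at least 1 CPM, and ran from -0.059 to 0.039 with 1 library left out. That of Eci1 was 0.018 within the libraries led by Ttn. The cause of these differences was not tested. Whether replicate numbers pair the animals is not known. Of 7 same-numbered pairs, 3 had deviations correlated above 0.1 (range -0.26 to 0.49). The median was 0.08 for the same number and -0.05 for other numbers, and 3 kidney disease animals correlated best with their own number. The replicate block uses the 7 shared numbers and so leaves out wild type 8. With it the Hadha to Hadhb difference was -0.095 (exact sign-flip permutation p = 0.016), the same size as without that animal and no block. That p is the smallest that 7 pairs can give, reached as every pair differed in the same direction. It rests on a pairing that is not known to hold. With 1 library left out the Hadha to Hadhb difference ran from -0.096 to -0.039. Counting error is small at these depths, and the spread between animals limits the precision.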

Other observations

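Genes outside the list were ranked by how closely their deviations from the group mean followed the mean deviation of the 10 beta-oxidation genes over the 15 animals. Among 10037 protein-coding genes, the 6 highest were Nipsnap2 (Pearson r = 0.98, Spearman rho = 0.97), Decr1 (r = 0.98, rho = 0.96), Acat1 (r = 0.97, rho = 0.94), Etfdh (r = 0.97, rho = 0.96), Ifngr2 (r = 0.97, rho = 0.94) and Phyh (r = 0.97, rho = 0.97). Decr1, Acat1 and Etfdh encode mitochondrial enzymes that serve fatty acid or ketone oxidation. Phyh encodes a peroxisomal hydroxylase of branched fatty acids, Nipsnap2 a mitochondrial protein, and Ifngr2 a subunit of the interferon gamma receptor. These genes were picked for their high values among many, and all genes of a library share its composition, so the correlations are a description.

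Phyh stood at 429 ± 38.9 CPM (SD, n = 7) in kidney disease and 432 ± 42.6 CPM (SD, n = 8) in wild type, a log2 change of -0.01 (SE 0.07, edgeR adjusted p = 0.98). Decr1 stood at 247 ± 20.2 against 285 ± 32.6 CPM (-0.20, SE 0.07, adjusted p = 0.23). None of the 6 passed the test between groups.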
